A study of Homo sapiens with 6 samples.

Results

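The genes of the collagen chains were taken from an RNA-sequencing table of irradiated and non-irradiated breast cancer cells. They are the protein-coding genes whose symbol is COL, a type number, A and a chain number, and 44 of the 58735 genes of the table met this rule. A mean of at least 1 FPKM over the 6 libraries was reached by 16 of them, and the other 28 were below it. FPKM counts fragments for each kilobase of a gene and corrects for the depth of a library, so that genes of unequal length can be set side by side. For the collagen genes the length used is that of all merged exons, and not of 1 transcript. Ranks, shares and ratios between genes depend on this length. MDA-MB-231, a human breast adenocarcinoma line of the basal-like kind, was irradiated with 10 Gy of gamma rays from a caesium source, and RNA was collected 24 h later. The control cells were handled at 0 Gy, and each dose had 3 libraries. All libraries carry the name SCR, which the study uses for cells with a non-targeting shRNA (shSCR), and the labels give their genotype as WT. The cells are 1 line in culture, without stroma or host, and the labels do not say whether the libraries of a dose came from separate cultures, so that p-values measure only the spread between these libraries.

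Collagens are extracellular proteins in which chains wind around each other in a triple helix, and the tight winding needs a glycine at regular steps, so that helical parts repeat glycine and a pair of other residues. Fibrillar collagens such as types I and V make the ropes of connective tissue, types IV and XVIII belong to basement membranes, type VII anchors epithelium to the tissue beneath it, type VI makes beaded filaments around cells, and types XIII and XVII span the plasma membrane. In tumors most fibrillar collagen is made by fibroblasts, and epithelial cells add to the collagens of the basement membrane. Chains are hydroxylated and folded in the endoplasmic reticulum, secreted, trimmed, cross-linked and finally cleaved by proteases.

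The genes described below differ in their helices, and an exon of each of the 5 genes that passed the test, with 1 of COL4A1 for comparison, shows the repeat. Each is the longest exon of at most 108 bases that is made wholly of such triplets of codons in the longest coding transcript of GENCODE 29 on GRCh38, read on the strand of the gene, and the capitals mark the glycine codon (GGN) that opens each triplet. The exon of COL6A1 (exon 15, chr21:45990979-45991041, plus strand) holds 7 triplets in 63 bases, and that of COL6A2 (exon 14, chr21:46119030-46119119, plus) holds 10 in 90 bases. The exons of COL7A1 (exon 94, chr3:48570861-48570968, minus) and COL1A1 (exon 21, chr17:50194721-50194828, minus) each hold 12 in 108 bases. The exons of COL4A5 (exon 3, chrX:108559064-108559153, plus) and COL4A1 (exon 3, chr13:110213926-110214015, minus) each hold 10 in 90 bases.
COL6A1: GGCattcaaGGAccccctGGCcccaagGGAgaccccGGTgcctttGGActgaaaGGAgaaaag
COL6A2: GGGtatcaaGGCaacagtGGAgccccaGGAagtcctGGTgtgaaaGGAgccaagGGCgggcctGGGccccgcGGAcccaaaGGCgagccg
COL7A1: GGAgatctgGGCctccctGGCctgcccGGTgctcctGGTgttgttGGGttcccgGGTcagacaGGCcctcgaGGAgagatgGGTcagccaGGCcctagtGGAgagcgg
COL1A1: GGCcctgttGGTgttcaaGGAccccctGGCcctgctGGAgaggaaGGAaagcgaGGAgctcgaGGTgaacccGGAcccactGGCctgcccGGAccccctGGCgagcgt
COL4A5: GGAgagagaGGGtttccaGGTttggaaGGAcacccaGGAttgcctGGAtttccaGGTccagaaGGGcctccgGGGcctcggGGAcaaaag
COL4A1: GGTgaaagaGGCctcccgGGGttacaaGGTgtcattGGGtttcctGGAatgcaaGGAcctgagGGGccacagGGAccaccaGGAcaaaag
The longest unbroken run of such triplets was 338 in COL1A1 and COL5A1, 87 in COL6A1 and COL6A2, 75 in COL7A1, 42 in COL4A5 and 40 in COL4A1. Over the 44 genes the number of exons ran from 2 to 118 with a median of 48, and the highest was that of COL7A1. The median longest run was 63.5 triplets in the genes at 1 FPKM or more and 58.5 in the others.

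The libraries held between 15643641 and 28861781 recovered reads, the whole reads implied by the values. The authors' values carry a scaling factor that moves with dose, from 0.973 to 0.991 at 0 Gy and from 1.03 to 1.04 at 10 Gy. The correlation between libraries was at least 0.992 within a dose and at most 0.989 between the doses. Markers of a mesenchymal basal-like line were found in all libraries, 7 of 7 at 1 FPKM or more, and their summed level was lower at 10 Gy (894 to 920 FPKM) than at 0 Gy (1087 to 1103 FPKM). Of 8 fibroblast markers only PDGFRB and THY1 reached 1 FPKM, with a sum of 2.86 to 3.43 FPKM at 0 Gy and 3.24 to 3.67 FPKM at 10 Gy. Of 4 endothelial markers PECAM1 alone reached 1 FPKM (sums of 2.16 to 2.49 and 2.82 to 3.15 FPKM). Of the leukocyte markers CD14 had the highest level (a mean of 2.22 FPKM, with sums over the list of 1.32 to 2.56 and 2.01 to 3.05 FPKM), and CD3E was at 0. Of 9 luminal epithelial markers 6 reached 1 FPKM (294 to 328 and 292 to 298 FPKM), and PGR was at 0. The part of any of these in the collagen levels was not tested.

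Collagen expression of these cells was carried by few genes. A mean of 10 FPKM or more was reached by 7 genes, and another 9 lay between 1 and 10 FPKM. In the lower range, 7 genes lay between 0.1 and 1 FPKM, 16 had reads but a mean under 0.1 FPKM, and 5 had no read. The 7 genes at 10 FPKM or more held 86.6% of the summed collagen FPKM at 0 Gy and 86.8% at 10 Gy. COL6A1, the first chain of type VI collagen, had the highest level, and it alone held 25.9% at 0 Gy and 26.8% at 10 Gy. The transmembrane gene COL13A1 came next. Just inside the limit of 1 FPKM was COL6A3 with 1.03 FPKM, and just outside it was COL16A1 with 0.778 FPKM. At 1 FPKM or more were 3 of 5 type VI genes, 2 of 4 transmembrane genes, the anchoring fibril gene COL7A1, 3 of 6 type IV genes, 3 of 11 fibrillar genes, 1 of 2 multiplexin genes, 2 of 10 fibril-associated genes and 1 of 3 short-chain genes.

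**Figure D1:**
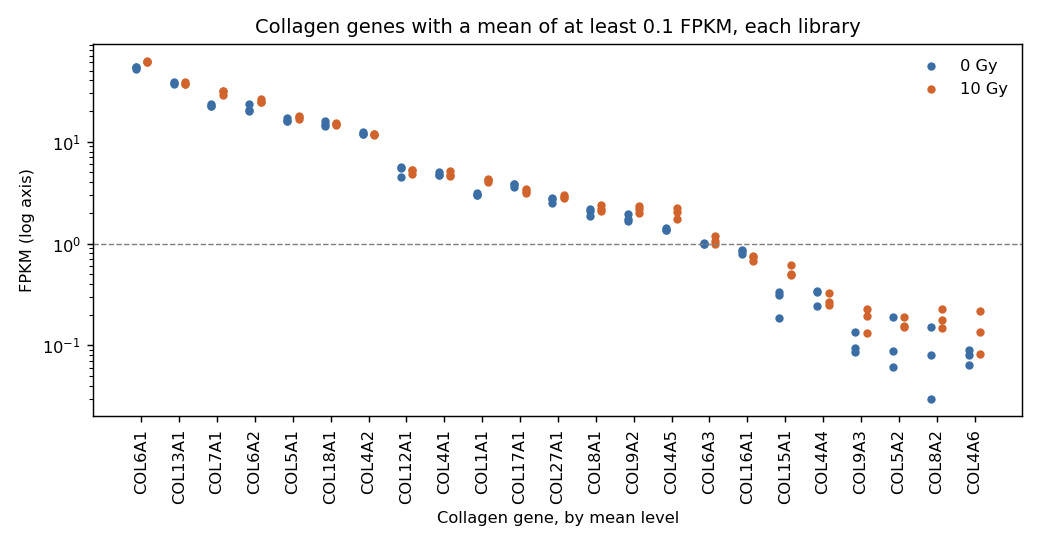
Level of each collagen gene whose mean reached 0.1 FPKM, in order of mean level (FPKM on a log axis); each point is 1 library, blue at 0 Gy and orange at 10 Gy, and the dashed line is 1 FPKM. COL6A1 stands at the top with 53.3 FPKM at 0 Gy and 61.1 FPKM at 10 Gy, and 16 genes lie above the line by their mean.

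The question of the comparison was which collagen genes differ 24 h after 10 Gy. COL7A1, COL1A1, COL4A5, COL6A2 and COL6A1 were higher at 10 Gy, by 1.15 to 1.45 times in mean FPKM, and no collagen gene was lower at an adjusted p under 0.05 (limma on log2(FPKM + 1), Benjamini-Hochberg over all 12128 genes whose mean reached 1 FPKM). Of the 16 collagen genes tested, 31.2% were therefore called higher, where 11.9% of all genes tested were called higher, 23.7% lower and 35.6% in either direction. The 1 collagen gene with an unadjusted p under 0.05 in the lower direction was COL17A1, and limma voom on the recovered reads called it lower. The median change of the 16 genes was 0.07 on the log2(FPKM + 1) scale, beside -0.04 over all genes. In 6 of the 16 the 3 libraries at 10 Gy lay above all 3 at 0 Gy (19.1% of all genes tested), in 1 they lay below (32.8% of all), and in 9 the doses overlapped. Over all genes 51.9% did not overlap in either direction. In bulk RNA, a change in the number of cells that use a gene and a change in RNA per cell cannot be told apart.

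**Figure D2:**
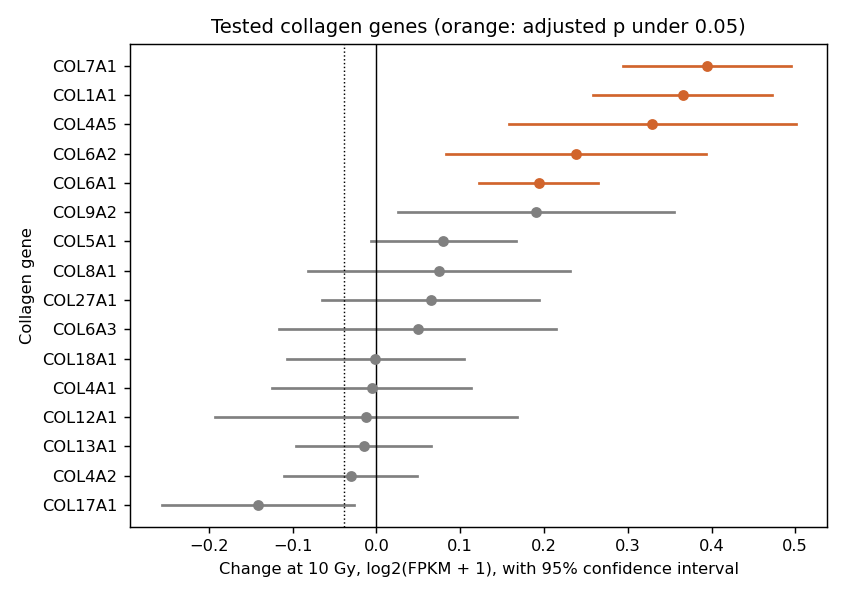
Change of the 16 tested collagen genes at 10 Gy against 0 Gy on the log2(FPKM + 1) scale, with 95% confidence intervals from limma; orange marks an adjusted p under 0.05, the solid line is 0 and the dotted line is the median of all genes tested (-0.04). COL7A1 (0.39) and COL1A1 (0.37) lie furthest to the right, and COL17A1 (-0.14) furthest to the left.

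The direction of these calls was read against the scaling. Rescaling each library to a fixed sum (TPM) moved the median of all genes by 0.12 on the log2 scale, and the share of calls that were higher rose from 33.4% to 74.5%, with 63.9% under upper quartile scaling and 48.7% under median-of-ratios scaling. Under each of these 3 scalings 7 collagen genes were called higher, the same 5 with COL5A1 and COL9A2, and none lower. Under TPM scaling 25.7% of all genes were called higher and 8.79% lower. Of the 12128 genes tested, upper quartile scaling called 2556 higher and 1444 lower, and median-of-ratios scaling 1945 and 2047. The collagen median lay above that of all genes by 0.11 as deposited and by 0.098 to 0.13 under the 3 scalings. In the values as deposited 10 of the 16 collagen genes had a positive change, and under each of the 3 scalings 15 had. The median of all genes moved as well, from -0.039 to 0.037 (upper quartile), 0.077 (TPM) and 0.00082 (median of ratios). The share of all genes with a positive change was not counted, so that these counts are not read as a result about collagens.

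Type VI collagen is built of COL6A1, COL6A2 and a larger partner chain such as COL6A3. The level of COL6A1 was 53.8, 54.1 and 52.0 FPKM at 0 Gy and 60.6, 62.1 and 60.4 FPKM at 10 Gy. The doses did not overlap, and the means were 53.3 ± 1.15 and 61.1 ± 0.940 FPKM (SD, n = 3 each). The log2(FPKM + 1) change was 0.19 (SE 0.030, limma adjusted p = 0.0037). Its neighbour COL6A2, which follows 93.0 kb downstream on the same strand of chromosome 21, was at 23.6, 19.9 and 20.3 FPKM at 0 Gy and at 24.6, 26.5 and 24.6 FPKM at 10 Gy. The libraries at 10 Gy were the higher ones, and 0 Gy replicate 1 came close to them. The change of COL6A2 was 0.24 (SE 0.066, limma adjusted p = 0.0288). This call was lost when any library other than 0 Gy replicate 1 was left out (adjusted p of 0.0579 to 0.0991) and when the replicate number entered as a block (adjusted p = 0.0508).

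COL6A3, the long chain that completes the type VI monomer, was far lower than its partners. Its level was 1.00, 0.994 and 0.997 FPKM at 0 Gy and 1.05, 1.17 and 0.983 FPKM at 10 Gy. The doses overlapped, and the 95% confidence interval of the log2(FPKM + 1) change ran from -0.12 to 0.21. COL6A3 reached a mean of 1 FPKM only through the libraries at 10 Gy (means of 0.998 and 1.07 FPKM), so that its place among the 16 tested genes rested on them. The ratio of COL6A2 to COL6A1 in FPKM was 0.400 ± 0.0362 at 0 Gy and 0.413 ± 0.0116 at 10 Gy, and the ratio of COL6A3 to COL6A1 was 0.0187 ± 0.000412 and 0.0175 ± 0.00133. Both ratios overlapped between the doses. The alternative partner chains were hardly read, with 8 reads of COL6A6 in the 6 libraries and none of COL6A5.

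Of the genes that anchor epithelium, COL7A1 was higher at 10 Gy and COL17A1 did not pass the test. COL7A1, the chain of the anchoring fibrils that hold basement membrane to the tissue beneath, was at 22.5, 22.6 and 23.2 FPKM at 0 Gy. At 10 Gy it was at 31.2, 31.2 and 28.4 FPKM. Every irradiated library was above every control library, and the means of 22.8 ± 0.398 and 30.3 ± 1.60 FPKM stood 1.33-fold apart. The log2(FPKM + 1) change of COL7A1 was 0.39 (SE 0.043, limma adjusted p = 0.00109), the largest of the collagen genes tested on this scale. On recovered reads limma voom gave 0.41, below COL4A5 (0.52) and COL1A1 (0.47).

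COL17A1, a transmembrane collagen of hemidesmosomes, was at 3.59, 3.81 and 3.80 FPKM at 0 Gy and at 3.16, 3.27 and 3.44 FPKM at 10 Gy. All irradiated libraries were below all control libraries. The change was -0.14 (95% confidence interval -0.26 to -0.03, limma adjusted p = 0.0584), and 3 of 18 alternatives called it lower. These 3 alternatives kept the authors' scaling. Under the 3 scalings that replaced it, the change was smaller, at -0.10 to -0.05. None of them called COL17A1 (limma adjusted p of 0.150 to 0.554). COL13A1, a transmembrane collagen of cell adhesion sites, was at 38.4, 37.6 and 36.8 FPKM at 0 Gy and at 38.6, 36.6 and 36.5 FPKM at 10 Gy. The doses overlapped almost fully, and the interval of its change ran from -0.10 to 0.07, with the direction turning from negative to positive under each of the 3 scalings. The transmembrane share of the summed collagen FPKM was 20.1% ± 0.0508 at 0 Gy and 17.8% ± 0.416 at 10 Gy. The sum itself was higher at 10 Gy (means of 206 and 228 FPKM), which lowers a share by itself.

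**Figure D3:**
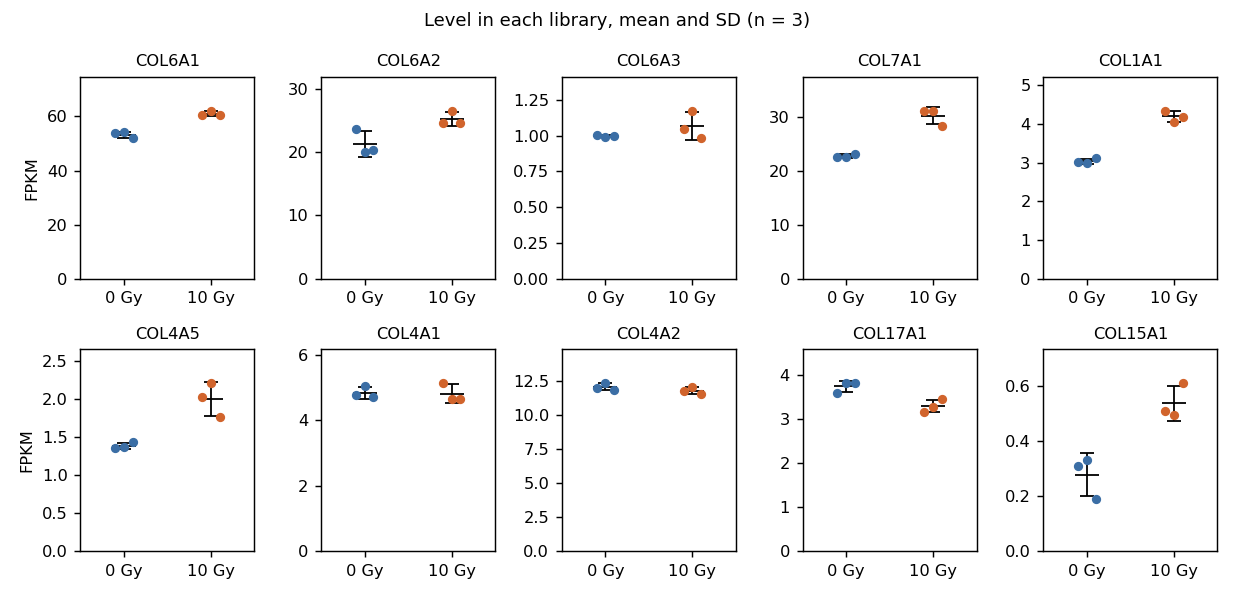
Level of 10 collagen genes in each library (FPKM from 0, 1 panel per gene with its own scale); points are libraries, blue at 0 Gy and orange at 10 Gy, and bars are the mean and SD of 3. In COL6A1, COL6A2, COL7A1, COL1A1, COL4A5 and COL15A1 the orange points lie above all blue ones, in COL17A1 below them, and in COL6A3, COL4A1 and COL4A2 the doses overlap.

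Among the fibrillar collagens, COL1A1, the main chain of type I collagen of skin and bone, was at 3.00, 2.98 and 3.11 FPKM at 0 Gy. At 10 Gy its level was 4.34, 4.05 and 4.19 FPKM. The doses were well apart, with means of 3.03 ± 0.0675 and 4.19 ± 0.146 FPKM and a ratio of 1.38. The log2(FPKM + 1) change of COL1A1 was 0.37 (SE 0.046, limma adjusted p = 0.00173), and on recovered reads it was 0.47. Its usual partner COL1A2 had 1 read in the 3 libraries at 0 Gy and 9 at 10 Gy, against 450 to 1275 reads of COL1A1 in each library. COL3A1, the chain of type III collagen, had 1 read at 0 Gy and 2 at 10 Gy.

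COL5A1, which nucleates collagen fibrils, was the highest fibrillar gene. Its level was 16.1, 16.9 and 16.1 FPKM at 0 Gy and 17.5, 17.9 and 16.8 FPKM at 10 Gy. The lowest irradiated library lay just under the highest control library, and the change of 0.08 was not called (95% confidence interval -0.01 to 0.17, limma adjusted p = 0.130), although the 3 scalings called it higher. Its partner COL5A2 was lower by far, at 0.114 ± 0.0691 FPKM at 0 Gy and 0.166 ± 0.0216 FPKM at 10 Gy. COL27A1, a fibrillar collagen of cartilage, was at 2.51, 2.82 and 2.77 FPKM at 0 Gy and at 2.87, 2.97 and 2.77 FPKM at 10 Gy. Its doses overlapped, and the interval of its change ran from -0.06 to 0.19.

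Type IV collagen is the network of basement membranes, and its 6 genes lie in 3 pairs that are transcribed away from each other. COL4A2 was at 12.0, 12.3 and 11.9 FPKM at 0 Gy and at 11.8, 12.0 and 11.5 FPKM at 10 Gy. COL4A1, with which it forms the common heterotrimer, was at 4.77, 5.05 and 4.72 FPKM at 0 Gy and at 5.15, 4.65 and 4.67 FPKM at 10 Gy. For both, the doses overlapped and the change as deposited was slightly negative but turned positive under the scalings (95% confidence intervals of -0.11 to 0.05 and -0.12 to 0.11). Their ratio, COL4A2 over COL4A1, was 2.49 ± 0.0399 at 0 Gy and 2.45 ± 0.147 at 10 Gy. It rests on lengths of 19293 and 14738 bases, while their longest coding sequences have 5136 and 5007 bases. Over the 6 libraries they had 29381 and 9159 reads.

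COL4A5, a chain of the networks of kidney and other specialized basement membranes, was at 1.35, 1.37 and 1.43 FPKM at 0 Gy. At 10 Gy it was at 2.03, 2.21 and 1.76 FPKM. The irradiated libraries were all higher, with means of 1.38 ± 0.0430 and 2.00 ± 0.227 FPKM and a ratio of 1.45. The log2(FPKM + 1) change of COL4A5 was 0.33 (SE 0.073, limma adjusted p = 0.0131), and on recovered reads it was 0.52. The ratio of COL4A5 to COL4A1, a pair chosen after the values were seen, was 0.286 ± 0.0167 at 0 Gy and 0.415 ± 0.0527 at 10 Gy, with no overlap. Its head-to-head neighbour COL4A6 was at 0.0789 ± 0.0133 FPKM at 0 Gy and 0.144 ± 0.0673 FPKM at 10 Gy, and the doses overlapped. Of the third pair, COL4A4 was at 0.309 ± 0.0539 FPKM and 0.281 ± 0.0388 FPKM, and COL4A3 had under 10 reads in every library.

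The starts of 2 type IV pairs are shown since the genes of each share a promoter region but not a level. Each window holds 250 bases before and 50 after a start of the gene in RefSeq on GRCh38.p14, read on the strand of the gene. Capitals mark GGGCGG (the GC box) and CCAAT (the CCAAT box) on either strand, which reads CCGCCC and ATTGG where the motif is on the other strand. The windows are chr13:110307108-110307407 (minus) for COL4A1, chr13:110307034-110307333 (plus) for COL4A2, chrX:108439588-108439887 (plus) for COL4A5 and chrX:108439409-108439708 (minus) for COL4A6.
COL4A1: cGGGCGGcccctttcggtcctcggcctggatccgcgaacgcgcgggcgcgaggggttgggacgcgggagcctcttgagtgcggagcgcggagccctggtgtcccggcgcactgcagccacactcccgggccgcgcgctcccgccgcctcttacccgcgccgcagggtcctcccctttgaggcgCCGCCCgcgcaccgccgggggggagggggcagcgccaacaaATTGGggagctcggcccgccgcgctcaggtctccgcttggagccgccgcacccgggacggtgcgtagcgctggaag
COL4A2: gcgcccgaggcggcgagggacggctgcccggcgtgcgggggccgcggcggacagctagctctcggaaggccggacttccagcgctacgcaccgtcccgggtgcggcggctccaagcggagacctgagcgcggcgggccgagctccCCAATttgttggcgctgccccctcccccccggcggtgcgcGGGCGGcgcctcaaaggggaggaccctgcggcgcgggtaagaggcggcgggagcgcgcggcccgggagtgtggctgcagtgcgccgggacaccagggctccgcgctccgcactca
COL4A5: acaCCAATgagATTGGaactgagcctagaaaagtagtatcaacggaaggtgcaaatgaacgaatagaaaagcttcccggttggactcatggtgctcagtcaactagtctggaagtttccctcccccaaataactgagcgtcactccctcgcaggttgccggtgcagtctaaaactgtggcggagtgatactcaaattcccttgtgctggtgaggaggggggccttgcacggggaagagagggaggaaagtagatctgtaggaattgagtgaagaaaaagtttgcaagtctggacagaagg
COL4A6: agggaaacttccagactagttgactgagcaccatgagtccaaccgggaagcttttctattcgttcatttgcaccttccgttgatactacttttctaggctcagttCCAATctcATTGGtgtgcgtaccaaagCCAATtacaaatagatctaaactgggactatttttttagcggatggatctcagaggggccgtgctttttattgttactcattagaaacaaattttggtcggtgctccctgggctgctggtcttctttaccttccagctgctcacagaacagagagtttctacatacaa
The windows of COL4A1 and COL4A2 share 226 bases, with starts 127 bases apart, and hold both motifs. Those of COL4A5 and COL4A6 share 121 bases, with starts 380 bases apart, and hold CCAAT alone of the pair. COL4A6 has another start in RefSeq, whose window (chrX:108438373-108438672, minus) is not shown and holds the GC box without the CCAAT box. GGGCGG was in 45.0% and CCAAT in 34.6% of 35116 promoter windows of the same length. A window was matched for 32 of the 44 collagen genes, and the 13 of these at 1 FPKM or more had 15 windows. None was matched for COL6A1, COL1A1 and COL8A1. The 15 windows are not separate, since both windows of COL5A1 overlap almost in full and those of COL4A1 and COL4A2 share bases. A site there can be counted more than once. GGGCGG was in 11 of the 15, CCAAT in 4, TATAAA (the TATA box, 11.5% of all windows) in 5, and TGAGTCA (an AP-1 site, 4.95% of all windows) in 0, all searched on both strands. These are matches of letters and not measured sites.

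Of the fibril-associated collagens, which decorate fibrils, COL12A1 was at 4.48, 5.47 and 5.61 FPKM at 0 Gy and at 5.23, 4.85 and 5.26 FPKM at 10 Gy. The doses overlapped, with a wide interval of -0.19 to 0.17 and a change that turned positive under the scalings. COL9A2, of the type IX collagen of cartilage, was at 1.96, 1.74 and 1.65 FPKM at 0 Gy and at 2.19, 2.00 and 2.34 FPKM at 10 Gy. The irradiated libraries were all higher, but the change of 0.19 missed the threshold (95% confidence interval 0.03 to 0.36, limma adjusted p = 0.0715), and 6 of 18 alternatives called it higher. COL18A1, the basement membrane collagen from which endostatin is cut, was at 16.0, 14.8 and 14.3 FPKM at 0 Gy and at 15.4, 14.9 and 14.7 FPKM at 10 Gy. Its doses overlapped, and the interval of its change, which was near 0 and turned positive under the scalings, ran from -0.11 to 0.10. SLC19A1 on the opposite strand overlaps 16.4% of its exon bases with a level of 0.147 FPKM. The short-chain collagen COL8A1 was at 1.87, 2.08 and 2.19 FPKM at 0 Gy and at 2.38, 2.08 and 2.17 FPKM at 10 Gy. Its interval of -0.08 to 0.23 held 0.

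The genes between 0.1 and 1 FPKM were below the limit of the test, and limma voom on the recovered reads of the 20214 genes whose mean reached 0.1 FPKM was added after the data were seen. In that test 11.1% of all genes were called higher, 15.6% lower and 26.8% in either direction. COL15A1, the other multiplexin, was at 0.310, 0.332 and 0.187 FPKM at 0 Gy and at 0.508, 0.494 and 0.611 FPKM at 10 Gy. Its irradiated libraries, with at least 60 reads each, were all above the controls, with 27 to 44 reads. The log2 change of COL15A1 was 1.01 (95% confidence interval 0.55 to 1.47, limma voom adjusted p = 0.0015), while limma on log2(FPKM + 1) over the same genes gave an adjusted p of 0.0539. COL8A2, the partner of COL8A1, was at 0.0803, 0.153 and 0.0297 FPKM at 0 Gy and at 0.229, 0.176 and 0.148 FPKM at 10 Gy, with 3 to 32 reads. Its doses overlapped, and it reached 0.1 FPKM only through the libraries at 10 Gy (means of 0.0877 and 0.184 FPKM), so that its values are given with no test.

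COL16A1, a fibril-associated collagen, was at 0.850, 0.793 and 0.857 FPKM at 0 Gy and at 0.754, 0.674 and 0.742 FPKM at 10 Gy. The irradiated libraries were the lower ones, but limma voom did not call the change of -0.20 (95% confidence interval -0.44 to 0.04, adjusted p = 0.214). COL9A3, of type IX collagen, was at 0.105 ± 0.0267 FPKM at 0 Gy and 0.185 ± 0.0477 FPKM at 10 Gy, and like COL5A2 and COL4A4 it overlapped between the doses and was not called. COL4A6 overlapped too, but it reached 0.1 FPKM only through the libraries at 10 Gy (means of 0.0789 and 0.144 FPKM), so that no test is given for it. Under 0.1 FPKM, COL19A1 had 0 reads at 0 Gy and 7 at 10 Gy, and COL14A1 had 0 and 6. COL28A1 had 2 and 1, COL26A1 and COL2A1 each had 1 and 0, and COL11A1 had 3 and 3. The rest of this range with reads had more of them at 10 Gy. These counts are not corrected for depth, which differed between the libraries. The 5 genes with no read in any library were COL5A3, COL6A5, COL9A1, COL22A1 and COL23A1, for which a count of 0 allows a mean of up to 0.00244 FPKM (COL6A5) to 0.00622 FPKM (COL23A1), with 3 reads over the 6 libraries as the limit and counting error alone covered. The genes under 1 FPKM together held 0.944% of the collagen FPKM at 0 Gy and 1.08% at 10 Gy.

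The summed collagen level was 209, 207 and 203 FPKM at 0 Gy and 231, 231 and 223 FPKM at 10 Gy. All irradiated libraries were above the controls, with means of 206 ± 3.11 and 228 ± 4.49 FPKM and a ratio of 1.11. The 5 genes called higher summed to 102 ± 2.23 FPKM at 0 Gy and 123 ± 3.34 FPKM at 10 Gy, and the other 39 genes to 104 ± 1.48 and 105 ± 2.29 FPKM. These sums carry no test, and that of the 5 genes and that of the other 39 were both formed from the calls. Type VI genes made up 36.7% ± 0.751 of the sum at 0 Gy and 38.3% ± 0.805 at 10 Gy, and COL7A1 11.1% ± 0.356 and 13.3% ± 0.444. The fibrillar share was 10.8% at both doses, the type IV share 9.07% and 8.35%, the multiplexin share 7.42% and 6.81%, and the fibril-associated share 3.85% and 3.62%. Each share is taken of a sum that was higher at 10 Gy, so that a lower share does not mean a lower level.

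**Figure D4:**
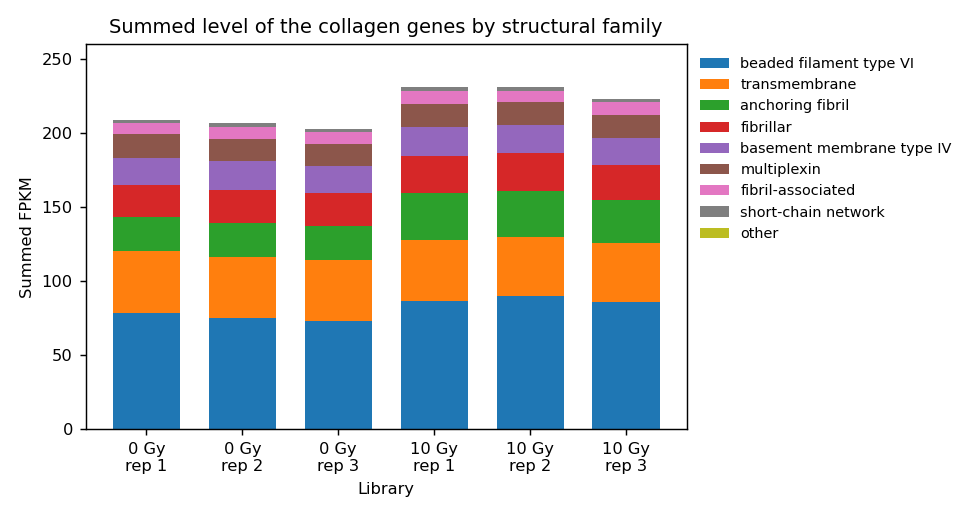
Summed FPKM of the collagen genes in each library, stacked by structural family; each bar is 1 library. The bars end between 203 and 209 FPKM at 0 Gy and between 223 and 231 FPKM at 10 Gy, and type VI genes form the largest block in each.

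The proteins that make, handle and sense collagen were read from 7 lists of 86 genes, of which 59 were tested. Of these, 19 were called higher, 11 lower and 29 not called, and their median change was 0.01 on the log2(FPKM + 1) scale beside -0.04 over all genes. As for the collagens, 11.9% of all genes were called higher and 23.7% lower. The lists were written from general knowledge, and each is described by its counts.

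Of 14 tested genes that modify prolines and lysines, 3 were higher and 4 lower, with a median of -0.01. PLOD1, a lysyl hydroxylase, was at 16.3, 15.3 and 16.3 FPKM at 0 Gy and at 20.1, 20.9 and 20.7 FPKM at 10 Gy, well apart, with a change of 0.35 (SE 0.037, limma adjusted p = 0.00104). P4HA1, the catalytic chain of a prolyl 4-hydroxylase, rose by 0.19 from a mean of 16.2 to 18.6 FPKM. COLGALT2, a collagen galactosyltransferase, rose by 0.17 from 2.76 to 3.22 FPKM but was called in 10 of 18 alternatives alone. The prolyl 3-hydroxylase P3H2 fell by 0.34 from 7.73 to 5.92 FPKM, and the prolyl isomerase PPIB fell by 0.30 from 53.0 to 42.9 FPKM. COLGALT1, the main collagen galactosyltransferase, fell by 0.15 from 59.3 to 53.2 FPKM, a call that was lost under upper quartile and TPM scaling (adjusted p = 0.162 and 0.523), as was that of P3H2 under TPM scaling (adjusted p = 0.0530).

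Of 9 tested genes of folding and export, 3 were higher and 1 lower, with a median of 0.01. SERPINH1, which encodes the collagen chaperone HSP47, was at 35.8, 32.8 and 35.3 FPKM at 0 Gy and at 39.7, 39.8 and 40.7 FPKM at 10 Gy. The doses did not overlap, and the change was 0.21 (SE 0.040, limma adjusted p = 0.00774). FKBP14, an isomerase of the endoplasmic reticulum, rose by 0.15, and SEC23A, of the COPII coat, rose by 0.12, a call that was lost with the replicate block (adjusted p = 0.0502), without 10 Gy replicate 1 (0.0658) and without 10 Gy replicate 3 (0.0757). KLHL12, an adaptor that enlarges COPII carriers, fell by 0.16. FKBP14 and KLHL12 were each called in 10 of 19 alternatives.

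Of 9 tested genes of propeptide removal and cross-linking, 4 were higher and 5 were not called, with a median of 0.01. TGM2, a transglutaminase, was at 54.2, 56.4 and 53.2 FPKM at 0 Gy and at 74.7, 70.9 and 74.7 FPKM at 10 Gy, with a change of 0.42 (SE 0.037, limma adjusted p = 0.000635). PXDN, the peroxidase that makes sulfilimine bonds in type IV collagen, rose by 0.30 from 32.1 to 39.7 FPKM. LOX, a lysyl oxidase, rose by 0.22 from 4.16 to 5.02 FPKM. In these 3 genes the doses did not overlap.

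Of 6 tested genes of degradation and uptake, 1 was higher and 2 were lower, with a median of -0.02. The uptake receptor MRC2 rose by 0.23 from 9.45 to 11.3 FPKM. The interstitial collagenase MMP1 was at 16.4, 16.3 and 15.7 FPKM at 0 Gy and at 12.8, 11.8 and 14.1 FPKM at 10 Gy, and it fell by 0.30 (SE 0.060, limma adjusted p = 0.0085). The gelatinase MMP9 was at 1.99, 1.00 and 1.92 FPKM at 0 Gy and at 0.888, 0.844 and 0.850 FPKM at 10 Gy. The second control library came close to the irradiated ones, and the fall of MMP9 by 0.48 (adjusted p = 0.0444) was called in 8 of 18 alternatives. MMP9 reached 1 FPKM only through the libraries at 0 Gy (means of 1.64 and 0.861 FPKM), so that the limit itself rested on the difference.

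Of 6 tested collagen receptors, 3 were higher and 3 were not called, with a median of 0.19. DDR1, a receptor tyrosine kinase for collagen, was at 3.67, 3.81 and 3.28 FPKM at 0 Gy and at 4.95, 5.15 and 4.98 FPKM at 10 Gy, with a change of 0.40 (SE 0.055, limma adjusted p = 0.00242). The integrin chains ITGA1 and ITGA10 rose by 0.30 and 0.28. The call of ITGA10 held in 13 of 18 alternatives and was lost with the replicate block (adjusted p = 0.0504), without 0 Gy replicate 2 (0.0541), without 10 Gy replicate 1 (0.0855), without 10 Gy replicate 3 (0.0596) and without the filter (0.0736). Of 4 tested matrix partners, 2 were higher and 2 were not called, with a median of 0.22. HSPG2, the basement membrane proteoglycan perlecan, was at 2.75, 2.99 and 3.48 FPKM at 0 Gy and at 4.86, 4.78 and 4.23 FPKM at 10 Gy, with a change of 0.47 (SE 0.079, limma adjusted p = 0.00472). TGFBI, a collagen-binding matrix protein, rose by 0.25 from 15.2 to 18.2 FPKM, a call that was lost without 10 Gy replicate 2 (adjusted p = 0.0590) and without 10 Gy replicate 3 (0.0503). The other 9 matrix partners were below the limit of 1 FPKM, among them SPARC and the nidogens NID1 and NID2.

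Of 11 tested regulators of collagen transcription, 3 were higher and 4 lower, with a median of -0.04. CTGF, a matricellular growth factor, was at 129, 116 and 111 FPKM at 0 Gy and at 60.4, 53.4 and 59.2 FPKM at 10 Gy. It fell by 1.03 (SE 0.067, limma adjusted p = 0.000428), the largest change in the lists. The ligand TGFB2 fell by 0.47 from 16.9 to 11.9 FPKM, and the transcription factor SP1 fell by 0.31 from 18.8 to 14.9 FPKM. CREB3L1, a membrane-bound activator of collagen genes, was at 11.0, 11.2 and 10.9 FPKM at 0 Gy and at 13.7, 14.7 and 13.8 FPKM at 10 Gy, with a change of 0.33 (SE 0.037, limma adjusted p = 0.00127). The receptor TGFBR1 rose by 0.27 from 14.2 to 17.3 FPKM, and SMAD3, which carries its signal, rose by 0.18 from 33.2 to 37.7 FPKM.

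**Figure D5:**
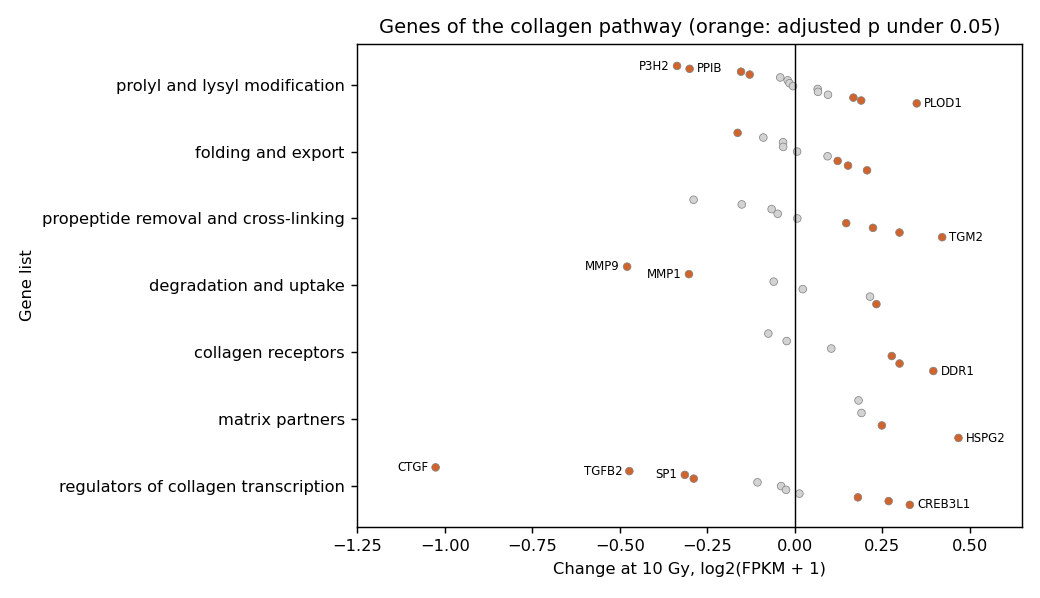
Change at 10 Gy on the log2(FPKM + 1) scale of the 59 tested genes of the 7 lists; each point is 1 gene, orange where the adjusted p from limma is under 0.05. CTGF (-1.03) lies furthest to the left and HSPG2 (0.47) furthest to the right, and called genes lie on both sides in 4 lists.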

How the data were processed

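The RNA of MDA-MB-231 cells was analysed in 6 libraries, 3 at 0 Gy and 3 at 10 Gy, grouped by the labels' treatment field. All value columns belonged to these libraries. The authors deposited FPKM values from polyA libraries sequenced by Novogene. The submitters' processing notes name HISAT2 and GRCh38, and the counting program and strand handling are not given in the sources used here. All 58735 identifiers were found in GENCODE 29, 58724 with the same start and end, and the length of each of the 44 collagen genes equalled its merged exons. FPKM multiplied by gene length and implied depth gave whole reads for 100% of the values above 0 (within 0.01), 15643641 to 28861781 per library. These reads entered limma voom, with the implied depth (15370175 to 29902477) as library size. The authors' scaling factor, which moves with dose, therefore stayed in limma voom.

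Expression was compared with limma 3.58.1 in R 4.3.3 on log2(FPKM + 1). Variances were moderated by eBayes with an intensity trend, tests were two-sided, and p-values were Benjamini-Hochberg adjusted over all 12128 genes whose mean reached 1 FPKM. Such changes understate those of low genes. The study states no test for this comparison. Genes at an adjusted p under 0.05 were called. The procedure was tested on simulated data. Replicates were compared, and none were duplicates. Libraries of the same replicate number showed no shared deviation between the doses (correlations of -0.0405, -0.0349 and -0.101). Libraries of unlike number had correlations of -0.0518 to 0.0937. Whether libraries of the same number were handled together cannot be told from these values.

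The collagen genes, lists and tests were chosen with earlier results of these data known. Collagen genes at 1 FPKM or more were named with their values, those at 0.1 FPKM or more with values, the rest by family and range, and of each list the called genes with the 3 largest rises and falls. Other names of genes with few reads, and of untested partners, were added after their values were seen. The level of a marker is not reported here. Exons were taken from the GENCODE 29 transcripts and promoter windows from RefSeq (GRCh38.p14). Alternatives covered the pseudocount, the filter, 3 scalings, the replicate block, each library left out, other eBayes settings, a test of protein-coding genes alone, and limma voom. Figures were drawn with matplotlib 3.10.9 in Python 3.11.15.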

Additional observations from a re-analysis of the deposited data

How the results depend on the processing

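Of the tested collagen genes and the named list genes, none changed direction past the threshold under any alternative run. The list genes that are not named were not checked for this. Over all genes the balance of calls did turn, from mostly lower as deposited to mostly higher under upper quartile and TPM scaling. COL6A1, COL7A1 and COL1A1 were called higher in all 19, 19 and 18 alternatives in which they were tested, COL4A5 in 17 of 18 (not without the filter, adjusted p = 0.0831) and COL6A2 in 11 of 19. The count of collagen genes called higher was 4 to 5 with single libraries left out and 3 with a filter of 5 FPKM, which left 8 of the 16 genes. Without a filter it was again 5, but COL14A1 and COL1A2, with 6 and 10 reads in all, stood in place of COL4A5 and COL6A2. The count called lower was 1, COL17A1, without the intensity trend, with protein-coding genes alone, with limma voom and with the added limma voom at 0.1 FPKM. The collagen median of 0.07 over 16 genes was 0.0089 over all 44 without the filter and 0.039 over 8 at 5 FPKM. These are other sets of genes, and the medians of all genes were then 0 and -0.079. For the 16 genes it was 0.13 under upper quartile, 0.20 under TPM and 0.10 under median-of-ratios scaling. It was 0.089 with limma voom and 0.046 to 0.086 with single libraries left out. The ratio of the summed collagen level, 1.11 as deposited, was 1.18, 1.21 and 1.15 under the same scalings. Of the lists, 9 genes were higher and 5 lower without the filter, where 19 and 11 were as deposited. Upper quartile scaling called 24 higher and 7 lower, TPM scaling 28 and 6, and median-of-ratios scaling 21 and 8. Over all genes, the 4317 calls (1443 higher, 2874 lower) were 1659 without the filter (628 and 1031). Higher calls numbered 874 at 5 FPKM, and upper quartile and TPM scaling gave 2556 and 3113 higher and 1444 and 1066 lower. With single libraries left out the calls numbered 2660 to 3993, of which 852 to 1393 were higher and 1808 to 2630 lower. They were 2705 without 10 Gy replicate 1 and 2660 without 10 Gy replicate 2, and fewer samples then entered the fit. With the replicate block 3503 genes (1137 higher, 2366 lower) and 4 collagen genes were called, without COL6A2. Libraries of the same replicate number showed no shared deviation, which does not tell whether they were handled together. The other causes were not tested. With 3 libraries a dose, genes not called may still differ within their intervals.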
